A study of Mus musculus with 28 samples.

Results

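Periaxin and the dystrophin-dystroglycan complex were followed through their 9 genes: Prx (periaxin), Drp2 (dystrophin related protein 2), Dmd (dystrophin), Utrn (utrophin), Dag1 (dystroglycan), Sgcb, Sgcd and Sgce (beta-, delta- and epsilon-sarcoglycan) and Sspn (sarcospan). They were chosen by name for their known place in this complex, not by their values. All 9 were among the 41605 gene identifiers of the count table, and all 9 passed the filter on low counts, which left 17700 genes. The lowest count of any of the 9 in any library was 26 reads, for Sgcd at E13.

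The study sequenced poly-A RNA from peripheral nerve of C57BL/6J mice at the embryonic (E) stages labelled E13 and E17 (labels rounded down to whole days), at postnatal days (P) 1, 5, 14 and 24, and in young adults at P60. There were 4 libraries at each of 7 stages, 28 in all, with 13899895 to 37662780 counted reads each. All mice were of this strain and none was perfused. An E13 library held several kinds of peripheral nerve from 2 pooled embryos, where the label says sciatic nerve. An E17 library held the sciatic nerves of 2 pooled embryos, and each postnatal library held the sciatic nerves of 1 mouse. Epineurium and perineurium, the outer sheaths, were stripped off as far as possible from E17 on. Comparisons with E13 therefore differ in age, nerves taken and dissection together, and these cannot be told apart. Both sexes were used at each stage, but the labels do not give the sex of a library.

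Schwann cells wrap peripheral axons and are covered on their outer side by a basal lamina. Dystroglycan binds laminins and other proteins of that lamina outside the cell and a dystrophin family protein inside it. In myelinating Schwann cells, periaxin and DRP2 form a complex with dystroglycan that holds the Schwann cell membrane against the outer face of the myelin in patches, and the cytoplasm left between these patches forms the Cajal bands. Utrophin and a short dystrophin, Dp116, bind dystroglycan elsewhere in the Schwann cell membrane, and the sarcoglycans and sarcospan sit beside dystroglycan in the membrane. Loss of periaxin causes a demyelinating neuropathy in mice and people.

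The labelled tissue was checked first. All 5 Schwann cell markers, among them Sox10, S100b, Erbb3 and Foxd3, were detected at every stage, with a summed level of 284 to 606 CPM (read counts brought to a common library total, with TMM scaling throughout) at E13 and of 2191 to 4696 CPM from E17 to P60. The 5 markers of neuronal cell bodies summed to 741 to 1753 CPM at E13 and to 5.47 to 33.5 CPM later. The 10 skeletal muscle markers summed to 35.1 to 719 CPM at E13, 9.45 to 34.2 CPM at E17 and no more than 9.61 CPM after birth, where Myog was at 0 in every library of P5, P14 and P24 and Myh8 in every library of P24 and P60. Libraries 1 and 4 of E13 stood apart in their trend with GC content (slopes of -0.93 and 0.72 log2 units per 10 points of GC), as did library 1 of P1 less strongly (-0.42), against -0.16 to 0.20 in the others. Without libraries 1 and 4 of E13, all 9 genes still passed the test from E13 to E17 in the same direction. The log2 changes were then 4.26 for Prx, -2.46 for Drp2, 4.26 for Dmd, 2.20 for Utrn, 1.93 for Dag1, 1.69 for Sgcb, 4.00 for Sgcd, 1.11 for Sgce and 1.64 for Sspn, to be set beside the values with all libraries given below. In these bulk samples fewer cells of a type and less RNA per cell cannot be told apart.

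Across the timeline all 9 genes changed with stage (edgeR's quasi-likelihood test of all stages, Benjamini-Hochberg adjusted p over 17700 genes from 1.5e-25 for Drp2 to 1.8e-12 for Sgcb), where 88.8% of all genes tested did. The mean CPM at the highest stage over that at the lowest ran from 4.11-fold for Sgce to 952-fold for Drp2. Prx followed with 341-fold, Dmd with 34.5-fold, Utrn with 23.8-fold, Sgcd with 23.5-fold, Dag1 with 11.0-fold, Sspn with 9.25-fold and Sgcb with 7.94-fold. The lowest mean was at E13 for every gene except Drp2, which was lowest at E17. The genes reached their highest means at different stages: Dmd at P1, Utrn and Dag1 at P5, Prx and Sgcb at P14, Sgcd at P24, and Drp2, Sgce and Sspn at P60. Only for Drp2 and Sspn did the highest stage pass the test against the next highest. For the other genes these stages were not told apart in the fit over all stages.

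**Figure D1:**
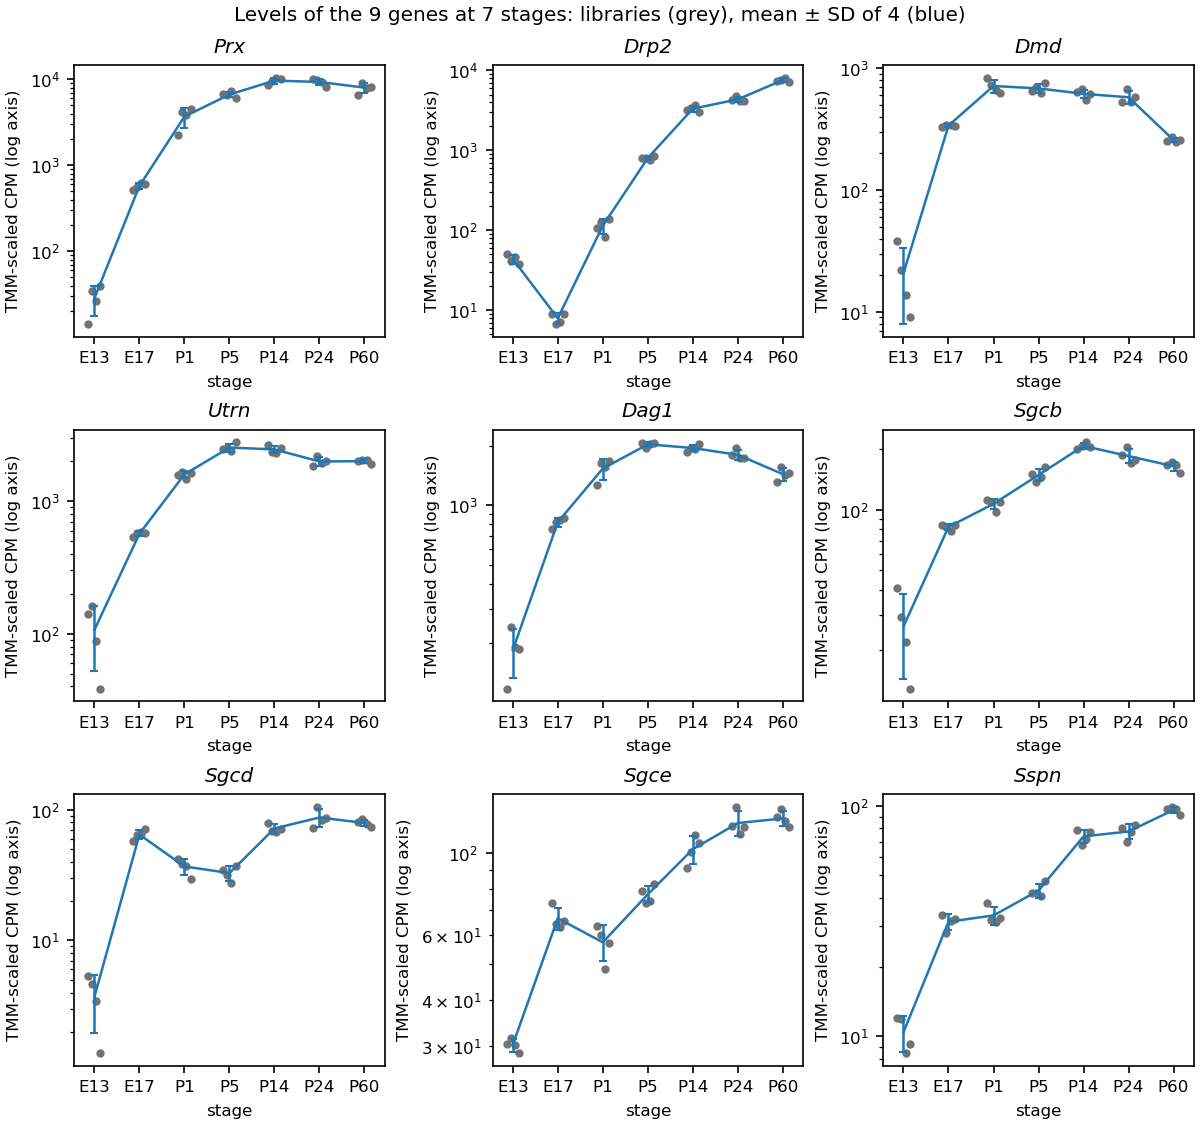
TMM-scaled CPM (log axis) of each of the 9 genes at 7 stages; grey points are libraries and blue lines join the mean ± SD of 4. Prx climbed from 28.4 CPM at E13 to 9688 CPM at P14, while Drp2 was lowest at E17 (7.96 CPM) and highest at P60 (7577 CPM).

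Periaxin is a scaffold protein with a PDZ domain that is abundant in myelinating Schwann cells. Prx (ENSMUSG00000053198) lies on the + strand of chromosome 7 from 27499324 to 27520214 in GENCODE M21 (GRCm38). Dag1 (ENSMUSG00000039952), which codes for a single precursor cut into the laminin-binding alpha and the membrane-spanning beta dystroglycan, lies on the - strand of chromosome 9 from 108204634 to 108263958. The 250 bases before a RefSeq start of these genes (GRCm38.p6) are shown because their levels ran close together over the 28 libraries (Pearson r of log2 CPM 0.978, a description over libraries that share their stages) although their ranges differed (341-fold and 11.0-fold). They are written 5′ to 3′ on the gene's strand, chr7:27499074-27499323 (+) and chr9:108263959-108264208 (-), with CpG dinucleotides in capitals.
Prx: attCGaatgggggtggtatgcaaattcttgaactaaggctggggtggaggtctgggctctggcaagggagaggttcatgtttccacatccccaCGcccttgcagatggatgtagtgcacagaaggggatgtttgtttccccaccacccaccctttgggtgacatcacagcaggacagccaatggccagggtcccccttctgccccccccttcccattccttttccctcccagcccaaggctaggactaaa
Dag1: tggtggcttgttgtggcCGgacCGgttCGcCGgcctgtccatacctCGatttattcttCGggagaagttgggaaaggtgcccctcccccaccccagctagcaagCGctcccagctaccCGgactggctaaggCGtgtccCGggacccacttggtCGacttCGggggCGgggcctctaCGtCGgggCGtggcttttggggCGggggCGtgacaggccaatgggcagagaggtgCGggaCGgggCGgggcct
The Prx window held 2 CpG dinucleotides at 56.4% GC, and 18.8% of the 32851 promoter windows of the same length in the table had fewer. The Dag1 window shown held 21 at 67.6% GC, and 83.7% of windows had fewer, with a median of 6 over all windows. A further Dag1 start lies nearby, and its window (chr9:108263816-108264065), which overlaps the one shown, held 36 CpG at 74.8% GC, 2 matches to CCAAT and none to GTGGGNG. Searched on both strands, the Prx window held 1 match each to CCAAT, to CATTCC (a TEAD motif), to GTGGGNG (an EGR motif) and to TGACNTCA (a cyclic AMP response element), none of which overlapped another. These letters stand in 33.9%, 12.6%, 28.1% and 7.49% of all windows. The Dag1 window shown held 1 match each to CCAAT and GTGGGNG, and neither window held AACAAT or ACAAAG (SOX motifs, in 9.42% and 16.5% of windows). A match is a run of letters and not a site of binding. Of the 9 genes, 7 had an entry in the promoter table, with 10 windows, and Drp2 and Sgce were not among them.

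Prx rose at each step up to P14, and no later step passed the test in the fit over all stages. At E13 its 4 libraries had 14.1, 34.2, 26.3 and 39.2 CPM, and at E17 they had 522, 553, 623 and 610 CPM. At P1 they had 2267, 4144, 3837 and 4541 CPM, and at P5 they had 6772, 6583, 7273 and 6047 CPM. None of these stages overlapped its neighbour, and library 1 was the lowest at E13, E17 and P1. The log2 fold change of Prx was 4.35 ± 0.24 (SE) from E13 to E17 (adjusted p = 1.2e-14), 2.68 ± 0.22 from E17 to P1 (adjusted p = 1.9e-10) and 0.85 ± 0.21 from P1 to P5 (adjusted p = 0.0039). Without library 1 of P1, the changes into and out of P1 were 2.85 and 0.69, and both still passed the test. The 5 markers of myelinating Schwann cells moved with Prx: they summed to 1158 to 1346 CPM at E17, 5439 to 12293 CPM at P1 and 28013 to 33621 CPM at P5, with the part of cell number in the change of Prx not tested.

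From P14 on, Prx stayed within 6658 to 10410 CPM in every library. It had 8631, 9470, 10410 and 10240 CPM at P14, 10098, 9832, 9250 and 8197 CPM at P24, and 6658, 9159, 8051 and 8218 CPM at P60. These 3 stages overlapped, and P60 also overlapped P5. The step from P5 to P14 passed the test by a narrow margin (log2 0.54 ± 0.20, adjusted p = 0.048) and did not pass it when any 1 of the 8 libraries was left out, with library size alone as the scaling or with no filter on low counts. From P14 to P24 the log2 difference was -0.05 ± 0.20 and from P24 to P60 it was -0.22 ± 0.20, neither of which passed. The latter passed once the GC trend was removed (-0.22 ± 0.08, adjusted p = 0.046). Over the same time the myelinating markers summed to 47613 to 61659 CPM at P14 and to 26609 to 36263 CPM at P60, and the 2 ranges did not overlap. Most of that sum was Mbp (43959 to 57223 CPM at P14 and 24093 to 33075 CPM at P60). Mag, Ncmap and Pllp were also lower at P60 without overlap, whereas Fa2h overlapped (797 to 995 CPM and 724 to 864 CPM).

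DRP2 is the dystrophin family protein that binds periaxin and ties it to dystroglycan. Its gene, Drp2 (ENSMUSG00000000223), lies on the + strand of the X chromosome from 134404551 to 134456573. It was the only gene of the 9 that was lower at E17 than at E13: its libraries had 50.9, 40.9, 46.4 and 37.7 CPM at E13 and 8.91, 6.65, 7.22 and 9.05 CPM at E17. All E17 libraries lay below all E13 libraries, and the log2 fold change was -2.47 ± 0.14 (adjusted p = 2.8e-14). The neuronal cell body markers, given above, were also higher at E13, and their part in the level of Drp2 was not tested.

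After E17 Drp2 climbed at every step, and no stage overlapped the next. The libraries had 108, 127, 83.8 and 138 CPM at P1, 807, 797, 760 and 847 CPM at P5, and 3157, 3434, 3647 and 3051 CPM at P14. They had 4328, 4774, 4144 and 4164 CPM at P24 and 7398, 7633, 8140 and 7135 CPM at P60. Even the lowest P60 library was thus above every P24 library. The log2 fold changes were 3.85 ± 0.15 from E17 to P1 (adjusted p = 2.2e-17), 2.81 ± 0.14 from P1 to P5 (adjusted p = 3.8e-14) and 2.05 ± 0.13 from P5 to P14 (adjusted p = 5.8e-12). From P14 to P24 the difference was 0.39 ± 0.13 and did not pass the test (adjusted p = 0.078), though it passed without the E13 libraries (adjusted p = 0.010), with only both stages in the fit, and with DESeq2 or limma-voom. The last step, from P24 to P60, was 0.80 ± 0.13 (adjusted p = 5.1e-05), a 1.74-fold increase. From P1 to P60 Drp2 rose 66.3-fold, a log2 fold change of 6.05 ± 0.16 (adjusted p = 6.1e-21).

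The reads of Drp2 relative to those of Prx in the same library do not depend on depth or scaling, and their change with stage does not depend on length. The log2 ratio of Drp2 to Prx was -6.19 ± 0.26 (SD, n = 4) at E17 and rose step by step. The ratio was -4.99 ± 0.46 at P1, -3.05 ± 0.17 at P5 and -1.54 ± 0.14 at P14. It was -1.10 ± 0.11 at P24 and -0.07 ± 0.19 at P60, where the libraries had 0.15, -0.26, 0.02 and -0.20. The stages did not overlap from E17 to P60. At E13 the ratio was 0.72 ± 0.84. Each of the 6 steps and P60 against P1 gave the smallest p that 4 against 4 libraries allow (exact two-sided permutation test, p = 0.0286, adjusted p = 0.0333 over 28 tests). Per base of annotated exon, Drp2 was at 0.624 of the level of Prx at P60 and at 0.00905 at E17.

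**Figure D2:**
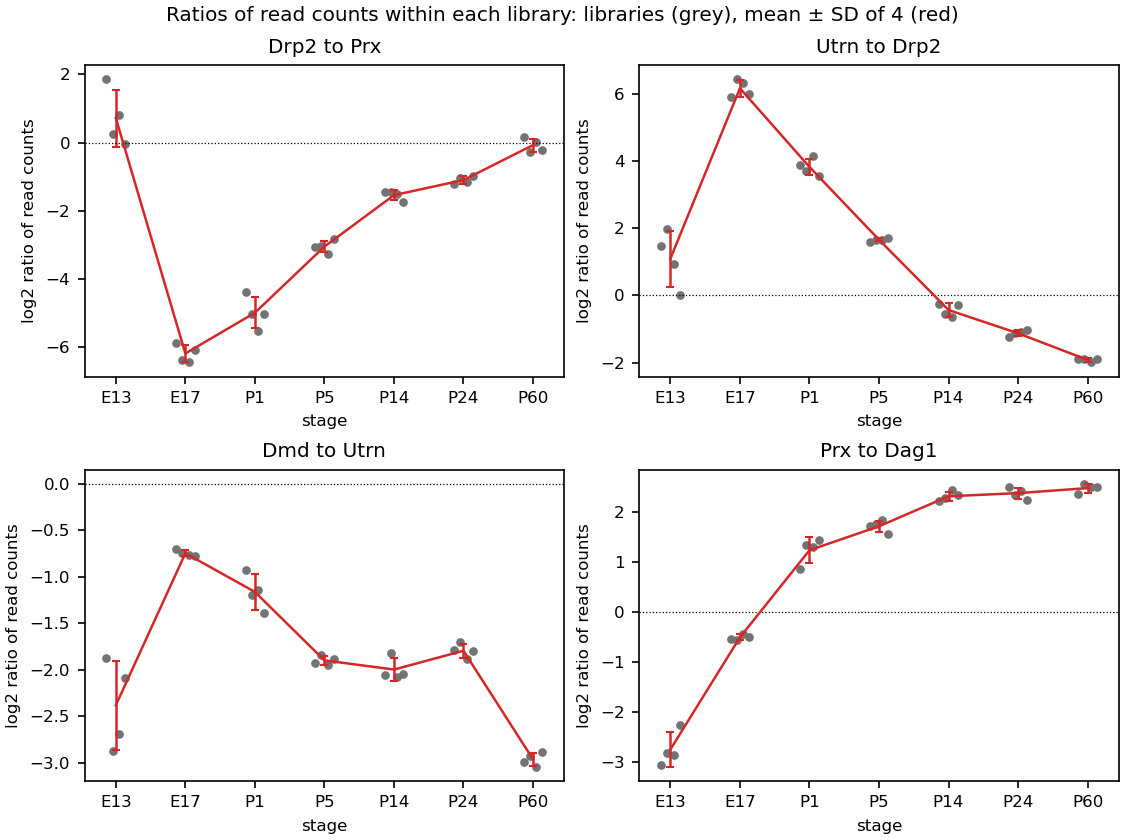
Log2 ratio of read counts of a pair of genes within each library, by stage; grey points are libraries, red lines join the mean ± SD of 4, and the dotted line marks equal counts. Drp2 to Prx rose from -6.19 at E17 to -0.07 at P60, and Utrn to Drp2 fell from 6.17 to -1.92.

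Utrophin is the widely expressed relative of dystrophin. Utrn (ENSMUSG00000019820, chromosome 10, 12382188 to 12869365, - strand) rose up to P5, its highest stage. Its libraries ran from 38.3 to 161 CPM at E13, from 534 to 584 CPM at E17, from 1476 to 1667 CPM at P1 and from 2394 to 2792 CPM at P5. None of these stages overlapped the next. The log2 fold changes were 2.41 ± 0.23 from E13 to E17 (adjusted p = 1.1e-09), 1.49 ± 0.23 from E17 to P1 (adjusted p = 1.0e-05) and 0.67 ± 0.22 from P1 to P5 (adjusted p = 0.035). The last of these did not pass the test when any 1 of the 8 libraries was left out. Utrn then ran from 2319 to 2632 CPM at P14, from 1832 to 2195 CPM at P24 and from 1913 to 2053 CPM at P60. No later step passed the test, nor did P60 against P1 (log2 0.33 ± 0.22, adjusted p = 0.20). Both P24 against P14 (lower) and P60 against P1 (higher) did pass in 3 other fits: without the E13 libraries (adjusted p = 0.0027 and 5.0e-05), with only the stages compared, and with limma-voom.

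Utrn and Drp2 exchanged their order between P5 and P14. The log2 ratio of Utrn to Drp2 reads was 6.17 ± 0.26 at E17 (SD, n = 4), 3.83 ± 0.25 at P1 and 1.66 ± 0.05 at P5. It was -0.43 ± 0.20 at P14, -1.13 ± 0.08 at P24 and -1.92 ± 0.05 at P60. Their mean ratio thus went from 72.8 reads of Utrn for each read of Drp2 at E17 to 0.265 at P60, and the sign was the same in all 4 libraries of each stage. Each step and P60 against P1 gave the smallest p of this design (exact permutation test, p = 0.0286, adjusted p = 0.0333). Per length the order changed at the same place, since Utrn had 1.52 to 1.65 times the level of Drp2 in the P5 libraries and 0.318 to 0.417 times in the P14 libraries.

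Dystrophin is the founding member of the family and is missing in Duchenne muscular dystrophy. Dmd (ENSMUSG00000045103, X chromosome, 82948870 to 85206141, + strand) has several start sites, and counts per gene do not tell the short Dp116 from the other forms. Dmd was low at E13 (38.2, 22.0, 13.6 and 9.0 CPM) and rose to 328 to 344 CPM at E17 (log2 4.02 ± 0.26, adjusted p = 3.9e-13). It rose again to 837, 728, 667 and 627 CPM at P1 (log2 1.08 ± 0.23, adjusted p = 7.0e-04), its highest stage. P1, P5 (622 to 756 CPM), P14 (551 to 670 CPM) and P24 (523 to 674 CPM) overlapped from each stage to the next, and none of those steps passed the test. At P60 the libraries had 252, 271, 248 and 259 CPM, below every library from E17 to P24. The fall from P24 was -1.17 ± 0.23 on the log2 scale (adjusted p = 6.8e-04), and the fall from P1 was -1.47 ± 0.23 (adjusted p = 4.4e-06).

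Among the members called in the last step, Dmd alone was lower at P60, and its ratio to Utrn fell with it. The log2 ratio of Dmd to Utrn reads was -0.75 ± 0.03 at E17 (SD, n = 4), -1.16 ± 0.19 at P1 and -1.90 ± 0.05 at P5. It was -2.0 ± 0.12 at P14, -1.79 ± 0.08 at P24 and -2.96 ± 0.07 at P60. Its steps from P5 to P14 (exact permutation test, p = 0.171, adjusted p = 0.185) and from P14 to P24 (p = 0.0571, adjusted p = 0.064) did not pass. The other 4 steps and P60 against P1 did, each at the smallest p. At P60 Dmd had 0.0924 of the level of Utrn per length of annotated exon, against 0.428 at E17. These lengths cover all annotated forms. The values would be higher for a short form such as Dp116, and a change of form with stage was not tested.

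Dag1 rose until P5, its highest stage. Its libraries had 118, 243, 191 and 187 CPM at E13, 760, 820, 843 and 861 CPM at E17, and 1259, 1645, 1558 and 1671 CPM at P1. They ran from 1955 to 2074 CPM at P5, from 1869 to 2041 CPM at P14, from 1731 to 1938 CPM at P24 and from 1308 to 1559 CPM at P60. Library 1 was lowest at E13, E17 and P1, as it was for Prx. The log2 fold changes were 2.15 ± 0.14 from E13 to E17 (adjusted p = 4.8e-13) and 0.90 ± 0.14 from E17 to P1 (adjusted p = 9.2e-06). From P1 to P5 the change was 0.41 ± 0.13 (adjusted p = 0.035), and it did not pass the test in 6 of the 8 fits that left out a library, among them the fit without library 1 of P1 (0.34). The P60 libraries lay below all P24 libraries, but the step did not pass (log2 -0.32 ± 0.13, adjusted p = 0.11). It passed without the E13 libraries (-0.31, adjusted p = 0.0010), with only P24 and P60 in the fit, with limma-voom and with the GC trend removed. In the fit over all stages, Dag1 at P60 was lower than at P5 (log2 -0.50 ± 0.13, adjusted p = 0.0027) and than at P14 (-0.44 ± 0.13, adjusted p = 0.014).

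Prx gained on Dag1 until P14, and the later steps of their ratio did not pass. The log2 ratio of Prx to Dag1 reads was -2.75 ± 0.35 at E13 (SD, n = 4), -0.51 ± 0.06 at E17, 1.23 ± 0.26 at P1 and 1.71 ± 0.12 at P5. It was 2.31 ± 0.09 at P14, 2.37 ± 0.11 at P24 and 2.47 ± 0.09 at P60. Per length the ratio was below 1 in every E17 library (0.769 to 0.841) and above 1 in every P1 library (2.05 to 3.10). The 4 steps up to P14 and P60 against P1 each gave the smallest p (exact permutation test, p = 0.0286, adjusted p = 0.0333). The steps from P14 to P24 (exact permutation test, p = 0.40, adjusted p = 0.40) and from P24 to P60 (p = 0.229, adjusted p = 0.237) did not pass.

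The sarcoglycans are single-pass membrane proteins that join dystroglycan in the dystrophin complex. Sgcb (ENSMUSG00000029156, chromosome 5, 73632749 to 73647790, - strand) rose gradually, from 26.2 ± 11.8 CPM (SD, n = 4) at E13 to 82.2 ± 2.56 CPM at E17, 107 ± 6.20 CPM at P1, 149 ± 10.4 CPM at P5 and 208 ± 6.96 CPM at P14, with 185 ± 14.9 CPM at P24 and 165 ± 8.49 CPM at P60. Of its steps, E13 to E17 (log2 1.64 ± 0.18, adjusted p = 1.5e-08) and P5 to P14 (0.48 ± 0.18, adjusted p = 0.041) passed, the latter only with all 8 libraries in the fit, and not with library size alone or with no filter on low counts. The P1 libraries did not overlap those of E17, nor those of P5, and neither step passed in the fit over all stages. Without the E13 libraries both passed (log2 0.38, adjusted p = 2.6e-05, and 0.45, adjusted p = 3.5e-06), as they did with only the stages compared, with limma-voom and with the GC trend removed. From P1 to P60 Sgcb rose by 0.62 ± 0.18 on the log2 scale (adjusted p = 0.0036).

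Sgcd was the only member called lower from E17 to P1 in the fit over all stages. Sgcd (ENSMUSG00000020354, chromosome 11, 46896253 to 47988969, - strand) had 5.33, 4.64, 3.47 and 1.37 CPM at E13 and 57.9, 64.2, 64.7 and 70.6 CPM at E17 (log2 4.09 ± 0.22, adjusted p = 1.5e-14). At P1 it had 42.1, 38.3, 37.3 and 29.4 CPM, below every E17 library (log2 -0.81 ± 0.19, adjusted p = 0.0021). At P5 it had 34.4, 31.6, 27.6 and 37.1 CPM, which overlapped P1, and at P14 it had 79.1, 68.4, 67.9 and 71.4 CPM. The rise from P5 to P14 was 1.13 ± 0.19 on the log2 scale (adjusted p = 5.7e-05). It stayed at 72.8 to 105 CPM at P24 and 73.7 to 84.1 CPM at P60, and neither step passed. The 4 perineurial markers summed to 133 to 147 CPM at E17, 77.5 to 105 CPM at P1, 69.5 to 82.9 CPM at P5 and 157 to 243 CPM at P14, and the 5 endothelial markers to 242 to 293 CPM at E17 and 140 to 164 CPM at P1. Other marker sums did not fall from E17 to P1. The Schwann cell markers went from 2191 to 2383 CPM up to 3283 to 3594 CPM. Those of smooth muscle and pericytes went from 135 to 163 CPM up to 178 to 197 CPM. The fibroblast markers overlapped (120 to 168 and 132 to 162 CPM), as did Cldn1 of the perineurial list (43.2 to 65.4 and 47.5 to 70.2 CPM). The part of these cells in the level of Sgcd was not tested.

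Sgce (ENSMUSG00000004631, chromosome 6, 4674350 to 4747207, - strand), a sarcoglycan known from many tissues, had the smallest range. It went from 30.2 ± 1.22 CPM (SD, n = 4) at E13 to 66.7 ± 4.62 CPM at E17 (log2 1.14 ± 0.09, adjusted p = 2.7e-11) and had 57.4 ± 6.37 CPM at P1, a step that did not pass (log2 -0.22 ± 0.09, adjusted p = 0.070) but did as a fall in 6 alternatives, among them without the E13 libraries (adjusted p = 0.029), without library 1 of P1 (-0.28, adjusted p = 0.028), with DESeq2 and with limma-voom. It then rose to 77.4 ± 4.15 CPM at P5 (0.43 ± 0.09, adjusted p = 9.0e-04) and 103 ± 8.89 CPM at P14 (0.41 ± 0.09, adjusted p = 9.5e-04). Both calls held when any library was left out, but neither passed once the GC trend was removed, and the former did not pass with library size alone. Its level was 121 ± 9.08 CPM at P24 and 124 ± 5.94 CPM at P60, and the later steps did not pass, though P24 against P14 did without the E13 libraries (log2 0.25, adjusted p = 0.036). P60 was 2.17-fold above P1 (log2 1.11 ± 0.09, adjusted p = 3.0e-11).

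Sarcospan is a small protein that crosses the membrane several times, like a tetraspanin, and binds the sarcoglycans. Sspn (ENSMUSG00000030255, chromosome 6, 145931641 to 145965223, + strand) had 8.41 to 12.0 CPM at E13, 28.1 to 33.8 CPM at E17 and 31.5 to 38.0 CPM at P1. It had 40.7 to 47.5 CPM at P5, 67.9 to 79.0 CPM at P14, 69.9 to 82.8 CPM at P24 and 91.5 to 99.1 CPM at P60. E17 overlapped P1 and P14 overlapped P24, and the other neighbouring stages were apart. The steps that passed were E13 to E17 (log2 1.59 ± 0.11, adjusted p = 1.2e-12), P1 to P5 (0.36 ± 0.10, adjusted p = 0.016), P5 to P14 (0.78 ± 0.10, adjusted p = 1.6e-06) and P24 to P60 (0.31 ± 0.10, adjusted p = 0.040). The step from P24 to P60 did not pass in 7 of the 8 fits that left out a library, and that from P1 to P5 did not pass in 3. The sum of the 8 markers of smooth muscle and pericytes was higher at later stages, with 178 to 197 CPM at P1, 591 to 707 CPM at P14 and 942 to 1021 CPM at P60. From P14 to P60 this was mainly Tagln (means of 114 and 396 CPM), and Rgs5, Kcnj8 and Cnn1 had lower means at P60. The 5 endothelial markers summed to 140 to 164 CPM at P1 and 347 to 384 CPM at P60. The 4 perineurial markers summed to 77.5 to 105 CPM at P1, 140 to 414 CPM at P24 and 299 to 528 CPM at P60. The 6 fibroblast markers summed to 132 to 162 CPM at P1 and 282 to 372 CPM at P60. This was mainly Ly6c1 (means of 4.67 and 104 CPM) and Pdgfra (123 and 182 CPM), and Sox9 was not higher at P60 (8.62 and 8.46 CPM). The part of these cells in the levels of Sspn and Sgce was not tested.

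Counts of the 9 genes per step follow. From E13 to E17 all 9 passed the test, 8 higher and Drp2 lower, each at least 2-fold and without overlap, where 62.2% of all genes tested passed (28.1% higher and 34.1% lower), 35.5% passed at 2-fold or more and 46.8% did not overlap. From E17 to P1, 6 passed (5 higher and Sgcd lower, where 29.5% of all genes passed, 15.1% higher and 14.4% lower), 4 of them at least 2-fold (11.7%), and 7 did not overlap (38.2%). From P1 to P5, 6 passed, all higher (17.6% of all genes, 10.3% higher and 7.33% lower), Drp2 alone at least 2-fold (5.84%), and 7 did not overlap (30.4%). With scaling by library size alone only Prx and Drp2 passed in that step, and with no filter on low counts 3 of the 9 did.

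From P5 to P14, 6 passed, all higher (29.6% of all genes, 15.4% higher and 14.2% lower), with Drp2 and Sgcd at least 2-fold (12.0%), and 6 did not overlap (43.6%). From P14 to P24 none of the 9 passed edgeR's test (5.45% of all genes did, 2.72% higher and 2.72% lower, and 2.65% at 2-fold or more), with 2 at an unadjusted p under 0.05 and 3 that did not overlap (16.5%). DESeq2 called 2 of them and limma-voom 4. From P24 to P60, 3 passed (Drp2 and Sspn higher and Dmd lower, where 16.1% of all genes passed, 6.84% higher and 9.23% lower), Dmd alone at least 2-fold (5.96%), and 4 did not overlap (27.2%). From P1 to P60, 7 passed (6 higher and Dmd lower, where 61.1% of all genes passed, 30.9% higher and 30.2% lower), 6 of them at least 2-fold (35.5%), and 8 did not overlap (60.7%). The median log2 difference of the 9 genes was 2.15, 0.90, 0.43, 0.48, -0.05 and -0.14 in the 6 steps in order, where the median of all genes lay between -0.08 and 0.00. From P1 to P60 it was 1.10, against -0.02 for all genes. These comparisons share stages with their neighbours.

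**Figure D3:**
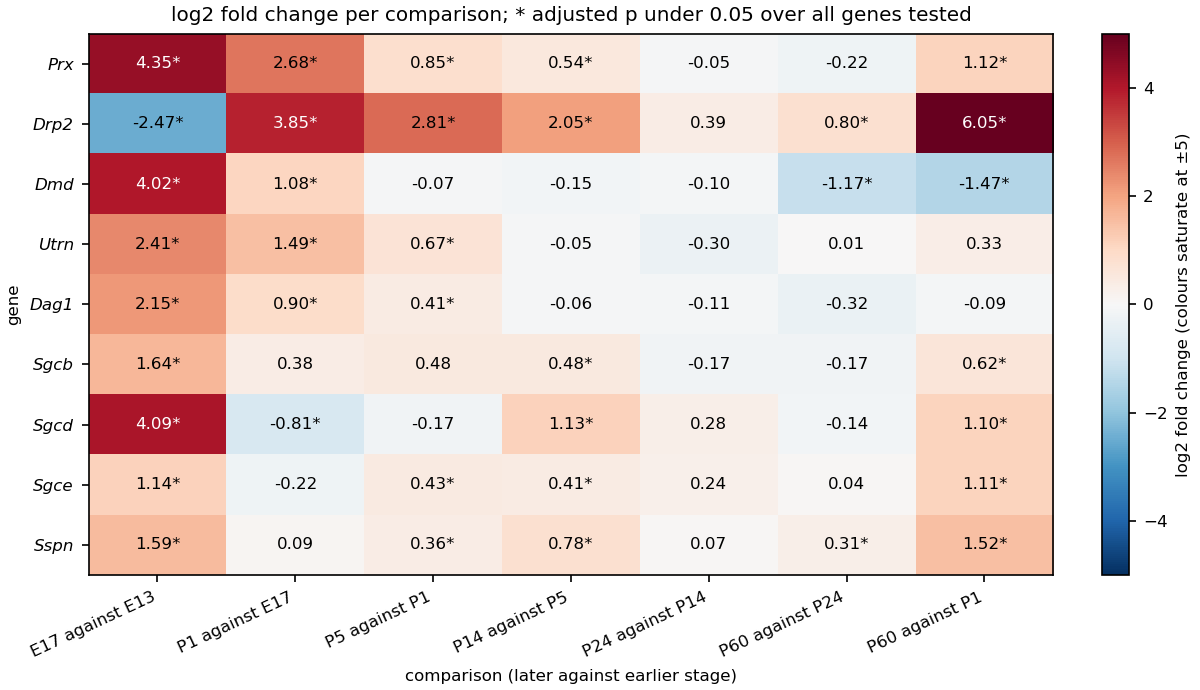
Log2 fold change of each gene (rows) in each comparison of a later with an earlier stage (columns); red is higher and blue lower at the later stage, colours stop at ±5, and a star marks an adjusted p under 0.05 over 17700 genes. Drp2 is the only gene below 0 from E13 to E17 (-2.47), and the column of P24 against P14 holds no star.

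Levels of the 9 genes were ranked as mean CPM per kb of annotated exon. At E17 the order was Dag1 (129 CPM per kb), Prx (103), Utrn (33.2), Sgcb (20.3), Dmd (14.2), Sgcd (7.79), Sspn (6.29), Sgce (6.28) and Drp2 (0.93). Drp2 was thus the lowest of the 9 at E17. At P5 Prx (1195 CPM per kb) led Dag1 (320), Utrn (148) and Drp2 (93.9). At P60 the order was Prx (1438 CPM per kb), Drp2 (886), Dag1 (226), Utrn (117), Sgcb (40.7), Sspn (19.3), Sgce (11.7), Dmd (10.8) and Sgcd (9.56). Drp2 had moved from the last place to the second. With the length of the longest transcript in place of all exons, Drp2 still lay above Dag1 at P60 (1062 against 254 CPM per kb) and below Utrn at P5 (113 against 205). The order of the lower genes depended on the length used, since at E17 Dmd (22.7 CPM per kb) then lay above Sgcb (21.7), and at P60 Dmd (17.3) lay below Sgcd (17.7) and Sgce (28.1) above Sspn (21.3). Neither length is that of a short form such as Dp116, so the place of Dmd holds only for the lengths used.

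**Figure D4:**
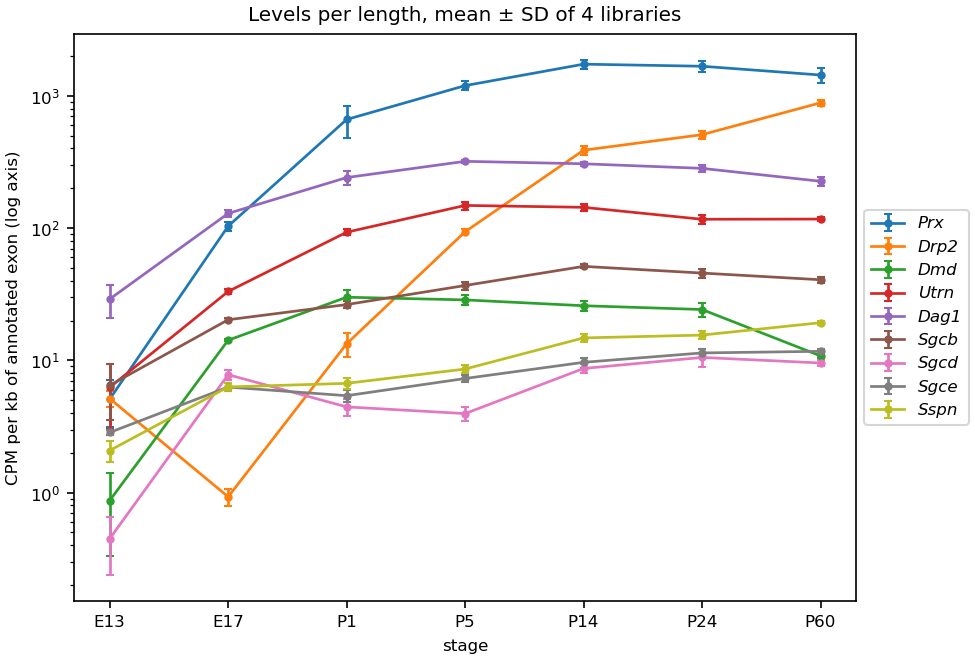
Mean ± SD over 4 libraries of TMM-scaled CPM per kb of annotated exon (log axis) for the 9 genes at 7 stages. The line of Drp2 crosses those of Utrn and Dag1 between P5 and P14 (93.9 to 388 CPM per kb), and Dmd falls from 24.2 at P24 to 10.8 at P60.

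Among 7773 genes that averaged 20 CPM or more, those with the most similar course over the 28 libraries were sought for each member, as a description over libraries that share their stage. For Prx they were Metrnl (Pearson r of log2 CPM 0.995), Mlip (0.993) and Mbp (0.991), which codes for myelin basic protein. For Drp2 they were Dclk3 (0.989), Kazn (0.988) and Fam107a (0.987), each of which also had a lower mean at E17 than at E13. For Dmd they included Il1rap (0.987) and Depdc7 (0.985), and for Dag1 they were Cnp (0.990), a myelin enzyme, Stk10 (0.987) and Bcas1 (0.986). For Utrn they were Tmem245 (0.993), Mfap3l (0.992) and Ptpre (0.991). For Sgcb they were Evi5 (0.992), Rhobtb3 (0.990) and Txndc16 (0.989), and for Sgcd they were Ifit2 (0.990), Cdh19 (0.987) and Prex2 (0.980). Sgce and Sspn shared Cav1 (0.978 and 0.993), the caveolae protein caveolin 1, and B2m (0.981 and 0.987) among their closest 3, beside Hacd2 (0.978) for Sgce and Arhgap31 (0.988) for Sspn. Between members r ran from 0.377 for Drp2 with Dmd to 0.978, with Prx and Dag1 at 0.978 and Sgce and Sspn also at 0.978.

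The other genes of the complex were taken from fixed lists. Sgca and Sgcz code for the alpha- and zeta-sarcoglycans, known mainly from muscle and brain. They were too low to test, with means of at most 0.863 and 0.827 CPM at any stage, both at E13.

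Dystrobrevins and syntrophins bind dystrophin family proteins inside the cell, and Nos1, the neuronal nitric oxide synthase, binds a syntrophin in muscle. All 8 genes on this list were tested. From E13 to E17, 3 rose and 4 fell, where 28.1% of all genes rose and 34.1% fell. In the later steps only rises passed, 2, 3, 4, 0 and 2 of 8 in order, where 15.1%, 10.3%, 15.4%, 2.72% and 6.84% of all genes rose. Between P1 and P60, 5 of 8 rose, where 30.9% of all genes rose. Dtna, alpha-dystrobrevin, was lowest at E17 as Drp2 was, with 27.8 ± 9.50 CPM (SD, n = 4) at E13, 8.07 ± 1.14 CPM at E17, 16 ± 2.64 CPM at P1, 74.9 ± 5.85 CPM at P14 and 166 ± 9.31 CPM at P60. Its fall from E13 to E17 (log2 -1.79 ± 0.17, adjusted p = 9.6e-10) and its rise from P24 to P60 (0.80 ± 0.16, adjusted p = 6.9e-04) both passed. Sntb1, beta-1-syntrophin, rose from 64.0 ± 6.03 CPM at P1 to 97.2 ± 2.63 CPM at P60 (log2 0.60 ± 0.20, adjusted p = 0.0096).

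Alpha-dystroglycan binds laminin through a sugar chain that a set of enzymes builds, and all 18 genes of this list were tested. From E13 to E17, 11 rose and 1 fell, where 28.1% of all genes rose and 34.1% fell. In the next 3 steps 4, 2 and 2 rose and 1 fell each time, where 15.1%, 10.3% and 15.4% of all genes rose and 14.4%, 7.33% and 14.2% fell, from P14 to P24 none passed (5.45% of all genes), and from P24 to P60 none rose and 5 fell (9.23% of all genes fell). Between P1 and P60, 3 rose and 8 fell, where 30.9% of all genes rose and 30.2% fell. Pomgnt1, which adds N-acetylglucosamine to O-mannose, had 63.1 ± 3.23 CPM at E17, 150 ± 13.3 CPM at P14 and 103 ± 8.24 CPM at P60, with a fall from P24 to P60 of -0.45 ± 0.13 (adjusted p = 0.020).

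The ligands of dystroglycan in the basal lamina are laminins, agrin and perlecan. All 9 genes on this list passed the test from E13 to E17, 7 higher and 2 lower, and all 9 passed from P1 to P60, 3 higher and 6 lower. Of all genes, 28.1% were higher and 34.1% lower in the former, and 30.9% higher and 30.2% lower in the latter. From P24 to P60 none rose and 5 fell (9.23% of all genes fell). Lamb1 and Lamc1 code for laminin chains and Hspg2 for perlecan. Lamb1 had 3591 ± 68.6 CPM (SD, n = 4) at E17, 3434 ± 244 CPM at P1 and 852 ± 79.1 CPM at P60 (P60 against P1, log2 -2.01 ± 0.14, adjusted p = 1.0e-12). Lamc1 had 4655 ± 242, 3287 ± 292 and 664 ± 37.2 CPM at these stages (-2.31 ± 0.16, adjusted p = 1.9e-12). Hspg2 had 2498 ± 431, 3657 ± 1370 and 1421 ± 174 CPM (-1.36 ± 0.33, adjusted p = 7.5e-04). Dag1 itself was at 1533 ± 189 CPM at P1 and 1437 ± 104 CPM at P60. That difference did not pass in the fit over all stages (log2 -0.09 ± 0.13, adjusted p = 0.57) but did with limma-voom (-0.165, adjusted p = 0.012).

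The last list held partners of periaxin and proteins of the Cajal bands and their borders. All 5 of its genes rose from E13 to E17, where 28.1% of all genes rose. From P1 to P60 4 rose and 1 fell, where 30.9% of all genes rose and 30.2% fell. Ahnak, a giant scaffold protein, was at 804 ± 132 CPM (SD, n = 4) at P1, 2198 ± 164 CPM at P14 and 4952 ± 523 CPM at P60, and rose from P5 to P14 (log2 1.03 ± 0.21, adjusted p = 4.3e-04) and from P24 to P60 (0.68 ± 0.21, adjusted p = 0.024). Pmp22, a membrane protein of compact myelin that binds the integrin pair alpha-6 beta-4, was highest at P14 and P24 as Prx was, with 912 ± 39.1 CPM at E17, 51920 ± 3036 CPM at P14 and 54687 ± 7585 CPM at P24. It passed the test for a fall from P24 to P60 (36011 ± 3759 CPM, log2 -0.60 ± 0.13, adjusted p = 0.0017). The difference between Pmp22 and Prx in that step was not tested. Itga6, integrin alpha-6, fell from 2249 ± 182 CPM at P1 to 1009 ± 37.7 CPM at P60 (log2 -1.16 ± 0.14, adjusted p = 5.3e-08).

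**Figure D5:**
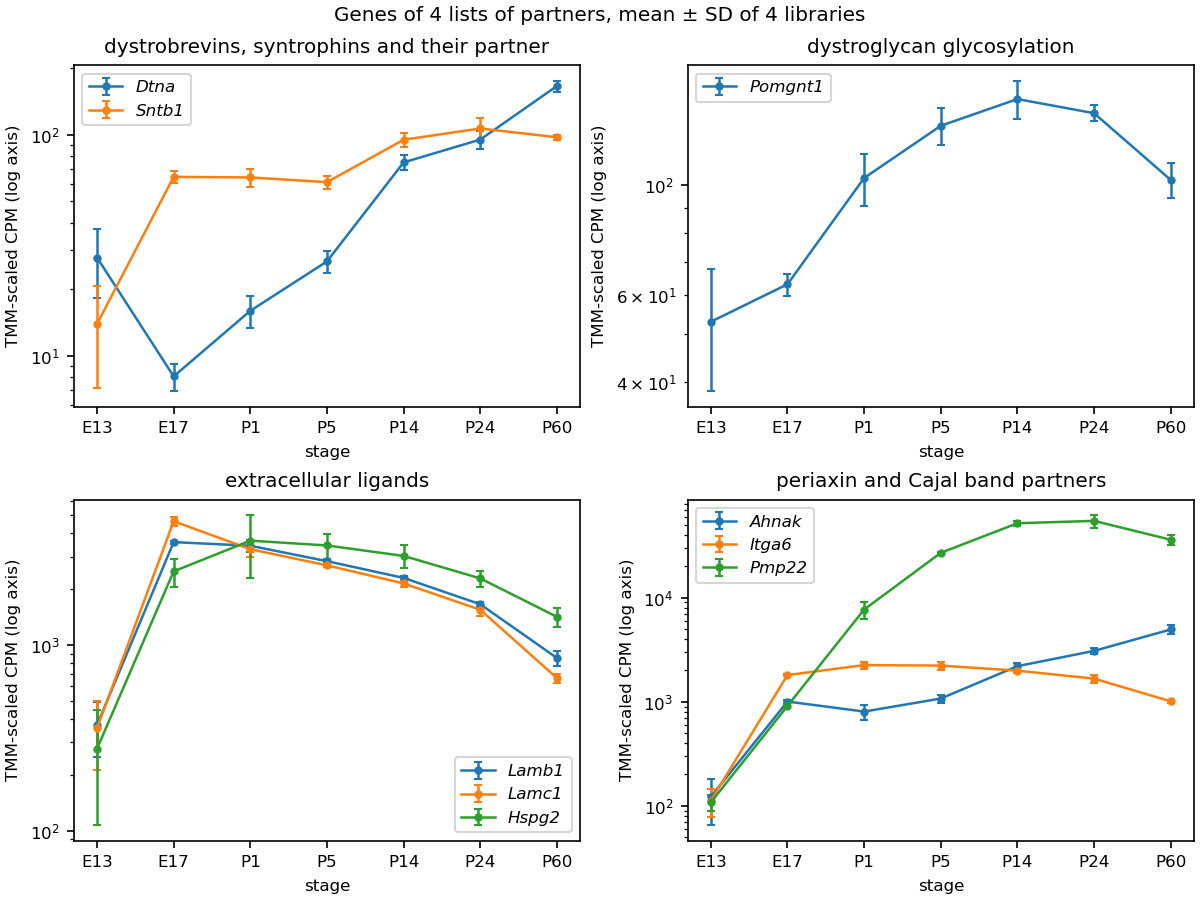
Mean ± SD over 4 libraries of TMM-scaled CPM (log axis) at 7 stages for 9 genes of 4 lists of partners. Dtna dips at E17 (8.07 CPM) before it rises to 166 CPM at P60, while Lamb1 and Lamc1 are at 852 and 664 CPM at P60 after 3591 and 4655 CPM at E17.

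Mmp2 and Mmp9 code for the gelatinases that cut beta-dystroglycan. Mmp2 had 380 ± 14.5 CPM (SD, n = 4) at E17, 204 ± 18.9 CPM at P1 and 191 ± 31.4 CPM at P60. It fell from E17 to P1 (log2 -0.89 ± 0.19, adjusted p = 7.9e-04) and from P24 to P60 (-0.66 ± 0.19, adjusted p = 0.019). Mmp9 was at 5.79 ± 2.13 CPM at E13, 0.209 ± 0.111 CPM at P1 and 3.28 ± 0.249 CPM at P60, and rose from P1 to P60 (3.94 ± 0.57, adjusted p = 1.2e-06).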

How the data were processed

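The authors made stranded TruSeq poly-A libraries, read from a single end, aligned the trimmed reads with STAR 2.6.1c and counted them per Ensembl gene with featureCounts. The submitters' processing notes name the build GRCm38.p5, while the methods print a human build name. Whether the counting used strand, and how it treated reads with several placements, is not given in the sources used here. The deposited values were raw counts per gene, not normalized by the authors. Prx shares 300 exonic bases with the antisense gene Gm15541 (344 counts in all) and Sspn 69 with Sspnos (1 count).

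Samples were grouped by the stage in their labels. Of 41605 identifiers, 41519 (99.8%) were matched to GENCODE M21 (GRCm38), which gave symbols, coordinates and lengths. The promoter windows came from RefSeq (GRCm38.p6). Genes were kept by edgeR's filterByExpr, which left 17700, and counts were scaled by TMM. All 28 libraries entered 1 quasi-likelihood fit (edgeR 4.0.16, R 4.3.3) with stage as the only term and robust estimation, with a common dispersion of 0.0439. The study names no test for this timeline. A gene passed at a Benjamini-Hochberg adjusted p under 0.05 over all genes tested, with no minimum fold. Log2 fold changes carry a standard error (SE), and the SE of every gene includes its spread at E13, since all stages shared 1 estimate. CPM is mean ± SD over 4 libraries, and postnatal libraries are separate mice. Ratios of counts within a library were compared by exact two-sided permutation tests (scipy 1.17.1), adjusted over 28 tests.

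The genes, lists, tests and alternatives were chosen with earlier results of these data known. Named genes were the 9 members, the 3 most abundant tested genes of each list, and for each member the 3 genes with the highest correlation. Some genes that this rule names are not reported here. Alternatives were other scalings, filters, subsets of libraries, limma-voom 3.58.1 and DESeq2 1.42.0. The fit was tested on simulated data of P60 against P1 (14769 genes), where it recovered 99 of 107 genes changed by 1 on the log2 scale and 93 of 93 changed by 2, with 5 false calls. The simulation gave every gene the same dispersion, below the 0.0439 above, and held only P1 and P60 libraries. Its recovery is thus not that of the fit over 28 libraries. No libraries of a stage had identical values or agreed within counting noise. Protein sequences were not used here.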

Additional observations from a re-analysis of the deposited data

Results flagged for a closer look

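In 4 of 91 groups of 4 libraries, the highest or the lowest library lay apart from the other 3 by more than Dixon's 95% limit. Chance alone flags about 1 in 20 groups, or 4.55 of 91. Sspn had 38.0 CPM in library 1 of P1, against 31.5 to 32.6 CPM in the other 3, and 47.5 CPM in library 4 of P5, against 40.7 to 41.9 CPM. Library 1 of P1 is the library of that stage that stood apart in its trend with GC content. The log2 ratio of Utrn to Drp2 was -1.99 in library 3 of P60, against -1.90 to -1.89 in the others. The log2 ratio of Dmd to Utrn was -1.81 in library 2 of P14, against -2.07 to -2.04 in the others.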

How the results depend on the processing

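Of 37 calls of a member in a comparison, 29 passed under every alternative run except a 2-fold minimum, which 23 met, and 8 did not: Utrn, Dag1, Sgce and Sspn from P1 to P5, Prx, Sgcb and Sgce from P5 to P14, and Sspn from P24 to P60. The number of members called from P1 to P5 was 2 with library size alone, 3 with no filter on low counts and 1 at 2-fold or more, and 3 to 5 with any 1 library left out. It was lowest without library 3 of P1 and without library 4 of P5. From P5 to P14 it was 2 at 2-fold or more and 4 in each fit without 1 library. From P14 to P24 it was 2 with library size alone or DESeq2, 3 without the E13 libraries or with only both stages in the fit, 4 with limma-voom and 1 with the GC trend removed. From P24 to P60 it was 5 with the GC trend removed and 1 at 2-fold or more. From P1 to P60 it was 8 without the E13 libraries or with only both stages in the fit, and 9 with limma-voom. The cause was not tested. Removing the GC trend, and leaving out libraries 1 and 4 of E13, were added after the data were seen, and the latter left all 9 calls from E13 to E17.

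Direction reversed for 5 small log2 differences, none of which passed the test. Sspn from E17 to P1 was -0.026 with library size alone. Dmd from P1 to P5 was -0.127 to 0.0289 over the fits without 1 library, positive without library 1 of P1, and Utrn from P5 to P14 was -0.0819 to 0.000759, positive without library 4 of P5. Prx from P14 to P24 was 0.00923 with library size alone and -0.106 to 0.00343 without 1 library, positive without library 4 of P24. Utrn from P24 to P60 was -0.00182 with no filter on low counts and -0.0365 to 0.0526 without 1 library, negative in 4 of the 8 fits. With library sizes unadjusted for composition, the median log2 difference of all genes was -0.33, -0.11, -0.19, -0.17, 0.05 and 0.10 in the 6 steps and -0.22 from P1 to P60. The share of higher genes among all those called then went from 45.2% to 31.5%, 51.3% to 37.5%, 58.3% to 26.3%, 52.0% to 31.3%, 50.0% to 62.4% and 42.6% to 62.4% in the 6 steps, and from 50.5% to 40.6% from P1 to P60.

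The replicate numbers were not treated as pairs, since the labels tie them to nothing shared and not every pair of same-numbered libraries correlated above 0.1. The deviations of such pairs correlated at -0.059 to 0.29, above 0.1 in 12 of 28 pairs of libraries, and 17 of 28 libraries were closest to their own number, a hint from the data and not from the design. A fit with the replicate number as a block called 9, 6, 6, 6, 0 and 3 members in the 6 steps, 7 from P1 to P60 and 9 over all stages, the same counts as without it. For the ratios the block allows no p below 0.125, and 3 libraries against 4 allow none below 0.0571. All 280 values of the ratios under alternatives kept their direction and moved by less than the spread between libraries where no test could be had.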
